A study of Notophthalmus viridescens with 18 samples.

Results

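Coagulation factors F8, F10 and F11 were followed in all 18 libraries of a bulk RNA-seq series on newt A1 cells. They are 3 of the 27395 transcript entries in the deposited tables, and the study names them in its set of protease transcripts that differed between senescent and proliferating cells. Their identifiers are comp83233_c1_seq4 (F8), comp7233_c0_seq1 (F10) and comp338_c0_seq4 (F11). Because the members were chosen by their levels in senescent against proliferating cells, that contrast is given here as a description without a test.

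A1 is a wild-type myogenic cell line from the limb of the newt Notophthalmus viridescens, and every group derived from this single line. PRO cells were proliferating mononucleate cells given DMSO in 10% fetal calf serum (FCS) and collected at day 12. SEN cells were exposed for 24 h to 20 µM etoposide, a topoisomerase II poison, together with 1 µM nutlin, which raises p53. They then stayed 11 days in 1 µM nutlin, also in 10% FCS, and were collected at day 12. All 4 myotube groups spent 5 days in 0.25% FCS, in which the cells fuse, and were collected at day 8 after 3 further days in fresh 0.25% FCS (MT_0.25%), in fresh 10% FCS (MT_10%), or in filtered 48 h conditioned medium at 0.25% FCS from proliferating (MT_0.25%_PRO_CM) or senescent cells (MT_0.25%_SEN_CM). Myotubes were purified by size, passing a 100 µm filter and being held on a 30 µm filter, whereas PRO and SEN cultures were not filtered and had another RNA kit. Day of collection, filtration and kit therefore cannot be told apart from cell state wherever myotubes are compared with PRO, and neither can serum level except in MT_10%, which was at 10% FCS when collected. Each group held 3 libraries. The labels do not say whether these were separate cultures, so the p-values measure only the spread between these samples.

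Clotting proceeds through a cascade of serine proteases that circulate as inactive zymogens and activate one another in turn. F11 belongs to the contact, or intrinsic, arm and activates factor IX when it has been activated itself. F8 is not a protease but the cofactor that holds activated factor IX in a working complex, and that complex activates F10. Activated F10, with factor V, cuts prothrombin to thrombin. The cascade is of interest in this system because thrombin and a serum activity that clotting proteases release have been linked to cell cycle re-entry of newt myotubes. In the study's own myotubes, however, AEBSF, a serine protease inhibitor that acts on clotting proteases, is reported to have changed serum-induced re-entry little. Protease inhibition is reported to have left the re-entry induced by senescent cells unchanged. These proteins are made mainly in the liver, and F8 in endothelium, in mammals.

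Libraries held 20609828 to 62991718 estimated reads. The 4 myotube markers (Myog, Ckma, Myh3.1 and Symhc1.1) summed to between 437 and 908 CPM (counts scaled to library size and by TMM factors) in the myotube libraries and to between 29.7 and 65.5 CPM in PRO and SEN. Ccnb1, the cyclin B1 of mitotic cells, ran from 95.9 to 127 CPM in PRO, from 1.37 to 1.89 CPM in SEN and from 50.3 to 58.1 CPM in MT_10%. In the other myotube groups it ran from 5.69 to 28.2 CPM.

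The 3 entries differed widely in depth. F8 gave 7 to 164 reads a library and 847 reads in all, F11 gave 29 to 5916 reads, and F10 gave 780 to 6881. By mean CPM, which is not corrected for length, F8 lay at the 27.3 percentile of the 23107 entries that passed the filter on low counts, F11 at the 80.1 percentile and F10 at the 92.7 percentile. All 3 members passed that filter. F8 is annotated with an open reading frame of 2514 amino acids at bases 467 to 8011 of its transcript, and its closest protein was a marmoset factor VIII fragment. F10 carries a frame of 484 amino acids whose closest protein was Xenopus coagulation factor 10, and F11 a frame of 406 amino acids whose closest protein was dog factor XI. No other entry of the tables came from the same assembly components, so reads of further isoforms could not be set beside these. The study listed 3 isoforms for F11, 1 for F8 and 0 for F10, and whether the entries pool such isoforms is not known.

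F11, the contact-arm protease, had the widest range. Its CPM values were 19.5, 22.2 and 15.8 in PRO and 110, 65.2 and 106 in SEN. In MT_0.25% they were 0.755, 1.08 and 0.816. The groups were far apart, with all SEN libraries above all PRO libraries and all MT_0.25% libraries below both. After 3 days in 10% FCS the values were 3.99, 4.66 and 6.54 CPM. With PRO conditioned medium they were 3.01, 6.15 and 2.41 CPM, and with SEN conditioned medium 4.70, 6.46 and 11.3 CPM. All 9 libraries of these treated myotubes lay between MT_0.25% and PRO, overlapping neither. The group means were, from the highest, 93.7 ± 24.8 CPM in SEN (SD, n = 3), 19.2 ± 3.21 in PRO, 7.48 ± 3.40 in MT_0.25%_SEN_CM, 5.07 ± 1.32 in MT_10%, 3.86 ± 2.01 with PRO medium and, lowest, 0.885 ± 0.175 in MT_0.25%. Within this order the 3 treated myotube groups overlapped one another, and the other neighbours did not overlap. The order held when any 1 of the 18 libraries was left out. By TPM the MT_10% mean stood at 5.81 and the MT_0.25%_SEN_CM mean at 5.80, so that these neighbours changed places.

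F8, the cofactor, was scarce everywhere. PRO libraries held 9, 7 and 23 reads, or 0.287, 0.301 and 0.784 CPM. SEN libraries held 62, 52 and 75 reads, or 1.20, 1.36 and 1.34 CPM. SEN lay above PRO without overlap, and its libraries were close to each other. MT_0.25% libraries gave 0.937, 1.43 and 2.09 CPM, and those with PRO conditioned medium gave 1.18, 1.98 and 1.20 CPM. The libraries in 10% FCS gave 0.644, 0.421 and 0.640 CPM, and those with SEN conditioned medium 0.863, 0.437 and 0.586 CPM. These last 6 libraries all lay below the 6 libraries of MT_0.25% and MT_0.25%_PRO_CM. Group means ran from 1.49 ± 0.579 CPM in MT_0.25% (SD, n = 3) through 1.46 ± 0.456 in MT_0.25%_PRO_CM and 1.30 ± 0.0909 in SEN to 0.629 ± 0.216 in MT_0.25%_SEN_CM, 0.569 ± 0.127 in MT_10% and 0.457 ± 0.283 in PRO. Only the step from SEN to MT_0.25%_SEN_CM separated neighbouring groups without overlap. The order within the upper 3 and lower 3 groups is thus not fixed by these libraries, and the whole order was kept in 12 of 18 omissions of a library.

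F10, the protease that acts on prothrombin, was highest in the myotubes kept at 0.25% FCS. PRO libraries gave 35.4, 46.5 and 36.8 CPM and SEN libraries 21.1, 20.4 and 22.4 CPM. MT_0.25% gave 131, 87.3 and 87.7 CPM, and MT_10% gave 70.6, 60.0 and 54.1 CPM. SEN was lowest, then PRO, then MT_10%, with no overlap between these groups or with the myotubes kept at 0.25% FCS. The libraries with PRO conditioned medium gave 133, 87.5 and 127 CPM, and those with SEN conditioned medium 131, 104 and 91.8 CPM. Both sets overlapped MT_0.25%. The means were 116 ± 24.7 CPM in MT_0.25%_PRO_CM (SD, n = 3), 109 ± 20.2 in MT_0.25%_SEN_CM, 102 ± 24.8 in MT_0.25%, 61.5 ± 8.36 in MT_10%, 39.6 ± 6.04 in PRO and 21.3 ± 0.968 in SEN. By TPM the order among the myotubes was another. Means were 205 TPM in MT_0.25%, 169 with PRO medium, 124 with SEN medium and 109 in 10% FCS. On that scale PRO and SEN medium did not overlap. SEN medium (lowest 115.69 TPM) and 10% FCS (highest 115.63 TPM) were also without overlap, but only narrowly.

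**Figure D1:**
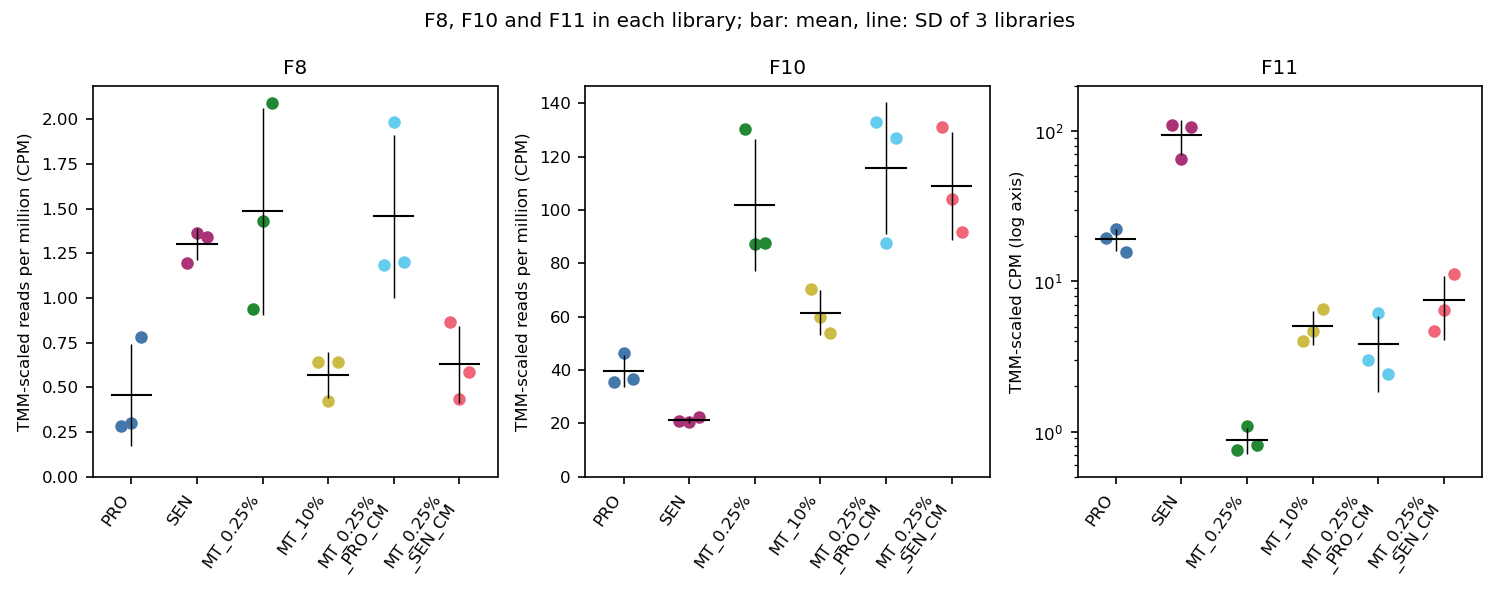
TMM-scaled CPM (vertical axes) of F8, F10 and F11 in each of the 18 libraries, by group, with the mean (bar) and SD (line) of 3 libraries. The F11 axis is logarithmic. F11 spans 0.755 to 110 CPM with SEN on top and MT_0.25% at the bottom, F10 is lowest in SEN, and F8 falls into 3 higher and 3 lower groups.

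Between senescent and proliferating cells the 3 members did not share a direction. F11 was 4.89-fold higher in SEN (log2 difference 2.29) and F8 was 2.81-fold higher (log2 1.49), whereas F10 was 1.86-fold lower (log2 −0.89). TMM factors, by which the counts are divided, were 0.617 to 0.710 in PRO and 1.21 to 1.37 in SEN. Before scaling, F10 gave 1079 to 1111 reads a library in PRO and 780 to 1247 in SEN. These came from libraries of 37725006 to 44402253 and 31537351 to 45257419 reads. The lower F10 value in SEN thus depends on this scaling. Without PRO replicate 3, which held 23 of the 39 F8 reads in PRO, the F8 difference was 2.14 on the log2 scale. Without PRO replicate 1 or 2 it was 1.22 or 1.29. In CPM the SEN and PRO libraries of each member did not overlap, but this contrast chose the members. The share of all entries without overlap was not counted, so this is not read as a result about the members. By TPM the F10 libraries overlapped. Of all tested entries, 50.9% passed an adjusted p of 0.05 in this contrast, and 3.02% had a log2 difference above that of F11. TPM, which the deposited tables scale for length within each library, moved the median of all entries from 0.27 to 1.18 on the log2 scale (log2(TPM + 0.1)). Against that median F11 was higher by 2.03 with TMM and 2.26 with TPM, and F10 was lower (−1.16 and −1.27). F8 stood 1.22 above the median with TMM and at −0.01 from it with log2(TPM + 0.1). Its mean TPM was 0.0291 in PRO and 0.188 in SEN. The added 0.1 exceeds the PRO level and shrinks the F8 change, so the TPM value cannot place F8 against other entries.

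Myotubes formed in low serum were compared with PRO to see how the factors differed with differentiation. All 3 members were called (edgeR quasi-likelihood test, Benjamini-Hochberg adjusted p under 0.05), beside 69.7% of all entries. F11 fell by 4.42 on the log2 scale (SE 0.38, adjusted p = 2.46e-09), a 21.4-fold difference, and 0.402% of entries had a lower value. By TPM it fell by 3.00 with log2(TPM + 0.1) and by 2.33 with log2(TPM + 1). F10 rose 2.57-fold (log2 1.36, SE 0.21, adjusted p = 8.67e-06). F8 rose 3.25-fold (log2 1.70, SE 0.40, adjusted p = 0.000766), and by 2.34 on the log2 scale without PRO replicate 3 (adjusted p = 0.000156). The F8 rise was 1.43 without PRO replicate 1 (adjusted p = 0.00810) and 1.49 without PRO replicate 2 (adjusted p = 0.00626). It was 1.37 without MT_0.25% replicate 3 (adjusted p = 0.00763). With log2(TPM + 0.1) its change was 1.35, beside a median of 1.37 over all entries. Its mean TPM was 0.0291 in PRO and 0.246 in MT_0.25%. The added 0.1 exceeds the PRO level and shrinks the F8 change, so this value cannot place F8 against other entries. RNA here comes from whole populations, so fewer cells of a type and less RNA per cell cannot be told apart. This comparison and those of SEN and MT_10% with PRO share the PRO libraries.

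Serum re-exposure tested whether the pattern of differentiated myotubes changed when they were brought to 10% FCS. All 3 members were called in MT_10% against MT_0.25%, beside 40.0% of all entries, and each moved towards its PRO level (both comparisons share MT_0.25%). F11 rose 5.69-fold (log2 2.51, SE 0.36, adjusted p = 3.29e-05), and 125 of 23107 entries had a higher value. By TPM the rise was 2.20 with log2(TPM + 0.1) and 1.62 with log2(TPM + 1). F8 fell by 1.44 on the log2 scale (SE 0.37, adjusted p = 0.00454). Relative to the median of all entries it stood at −1.47 with TMM, at −0.67 with log2(TPM + 0.1) and at −0.07 with log2(TPM + 1). Its mean TPM was 0.246 in MT_0.25% and 0.0791 in MT_10%, so the added constants shrink its change on both TPM scales. F10 fell by 0.73 (SE 0.21, adjusted p = 0.00855), a call that was lost without MT_0.25% replicate 1 (log2 −0.51, adjusted p = 0.0535). Set against PRO itself, where 51.0% of entries were called, MT_10% remained 3.76-fold lower in F11 (log2 −1.91, SE 0.33, adjusted p = 6.07e-05). On log2(TPM + 0.1) that F11 difference was −0.80 and was not called (limma, adjusted p = 0.125), while relative to the median of all entries it was −1.83, beside −2.06 with TMM. F10 was 1.56-fold higher than in PRO (log2 0.64, SE 0.21, adjusted p = 0.0142), and the call was lost without MT_10% replicate 1 (adjusted p = 0.0640) or PRO replicate 1 (adjusted p = 0.0594). F8 was not called against PRO (log2 0.26, 95% interval −0.63 to 1.15, adjusted p = 0.633).

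With conditioned medium from proliferating cells, F11 was the only member of the 3 that edgeR called, beside 24.5% of all entries. F11 rose 4.31-fold over fresh low-serum medium (log2 2.11, SE 0.36, adjusted p = 0.000339). By TPM the change was 1.48 with log2(TPM + 0.1) (limma, adjusted p = 0.0233) and 1.04 with log2(TPM + 1). F10 had a log2 difference of 0.19 (95% interval −0.24 to 0.61, adjusted p = 0.547) and F8 one of −0.05 (−0.76 to 0.67, adjusted p = 0.941). The F10 value was −0.29 by TPM, where the median of all entries was −0.47, and stood above that median on both scales.

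With conditioned medium from senescent cells, F11 and F8 were called, 2 of the 3 members, beside 37.7% of all entries. F11 rose 8.37-fold over fresh low-serum medium (log2 3.06, SE 0.36, adjusted p = 1.16e-05), and 48 of 23107 entries had a higher value. By TPM the F11 change was 2.07 with log2(TPM + 0.1) (limma, adjusted p = 0.00155) and 1.52 with log2(TPM + 1). F8 fell by 1.27 on the log2 scale (SE 0.37, adjusted p = 0.0117). Relative to the median of all entries F8 stood at −1.15 with TMM, at −0.18 with log2(TPM + 0.1) and at 0.32 with log2(TPM + 1). Its mean TPM was 0.246 in MT_0.25% and 0.0564 in MT_0.25%_SEN_CM. The added 0.1 or 1 shrinks the F8 change at these levels, so the TPM values cannot place F8 against other entries. The F8 call was lost without MT_0.25% replicate 3 (log2 −0.94, adjusted p = 0.0938) or MT_0.25%_SEN_CM replicate 2 (log2 −1.06, adjusted p = 0.0669). F10 had a log2 difference of 0.10 (95% interval −0.33 to 0.53, adjusted p = 0.721) on TMM-scaled counts. By TPM it fell by 0.73 (limma, adjusted p = 0.000628), while the median of all entries was −0.89 on that scale. The comparisons of serum and of both conditioned media share the MT_0.25% libraries. The tests of SEN medium against MT_0.25% took the libraries as unpaired, although their replicate numbers were taken to pair them.

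The 2 conditioned media were then compared directly. F8 was the only member called between them, beside 8.34% of all entries, with a value 2.34-fold lower in senescent medium (log2 −1.23, SE 0.38, adjusted p = 0.0479). This call was at the margin: it was lost when any of 5 of the 6 libraries was left out (adjusted p = 0.0529 to 0.210, log2 −1.50 to −0.94) and held only without MT_0.25%_PRO_CM replicate 3. It was also lost by TPM (−0.79 with log2(TPM + 0.1), limma, adjusted p = 0.0843). On that scale the added 0.1 exceeds the F8 mean of 0.0564 TPM in senescent medium, which shrinks the difference. F11 was 1.94-fold higher in senescent medium (log2 0.96, 95% interval 0.27 to 1.64), which was not called (adjusted p = 0.0745). MT_0.25%_PRO_CM replicate 2, at 6.15 CPM, lay inside the range of senescent medium, and without it the F11 difference was 1.47 and was called (adjusted p = 0.0175). It was also called without MT_0.25%_SEN_CM replicate 1 (log2 1.20, adjusted p = 0.0485). For F10 the log2 difference was −0.09 (95% interval −0.51 to 0.34, adjusted p = 0.827).

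Whether serum and senescent medium acted to a different extent was tested as 1 contrast, the difference between the serum effect (MT_10% minus MT_0.25%) and the senescent medium effect (MT_0.25%_SEN_CM minus MT_0.25%_PRO_CM). None of the 3 members passed at an adjusted p of 0.05, beside 4.22% of all entries called by edgeR. F11 had a difference of 1.55 on the log2 scale (95% interval 0.56 to 2.55, adjusted p = 0.0681), with an adjusted p of 0.0281 by DESeq2. F10 had a difference of −0.64 (−1.25 to −0.04, adjusted p = 0.216) and F8 one of −0.21 (−1.31 to 0.89, adjusted p = 0.864). Unadjusted p-values of F11 (0.00394) and F10 (0.0389) were under 0.05 by edgeR. The F11 difference was called without MT_0.25%_SEN_CM replicate 3 (log2 1.98, adjusted p = 0.0219) and without MT_0.25%_PRO_CM replicate 3 (1.80, adjusted p = 0.0449).

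**Figure D2:**
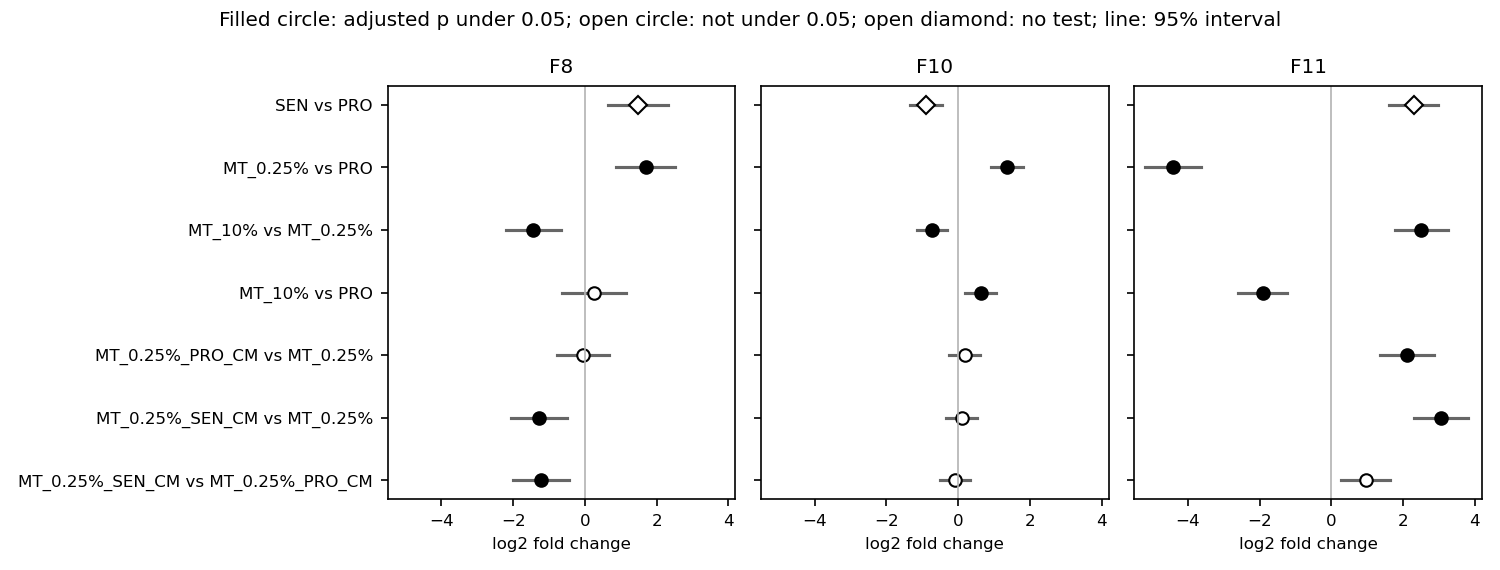
Log2 fold change (horizontal axis) of F8, F10 and F11 in 7 comparisons of the edgeR fit, each with its 95% interval. Filled circles passed an adjusted p of 0.05, open circles did not, and open diamonds mark the contrast that chose the members and was not tested. F11 lies at −4.42 in MT_0.25% against PRO and between 2.11 and 3.06 in the 3 comparisons of treated myotubes with MT_0.25%.

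Mononucleate cells carried over on the filters would add PRO transcripts to myotube libraries. Timp1.1, an inhibitor of metalloproteinases, and 4 unnamed entries had been picked for being far higher in PRO than in MT_0.25%. Their summed CPM ran from 25171 to 38789 in PRO and from 141 to 427 in MT_0.25%, a mean of 0.883% of PRO. The sums were 2701 to 4447 in serum, or 11.1% of PRO. They were 131 to 203 (0.478% of PRO) under PRO conditioned medium and 364 to 556 (1.46% of PRO) under SEN conditioned medium. None of the 5 was at 0 in a group. F11 stood at 4.62%, 26.4%, 20.1% and 39.0% of its own PRO mean in the same 4 myotube groups, in that order. Since the 5 transcripts were picked in these data for low levels in MT_0.25%, their place below F11 there follows from the choice. The choice may also lower the 5 transcripts under conditioned medium, where serum was low as well. As a percent of PRO, F11 was 27.3 and 24.5 times the highest of the 5 transcripts under PRO and SEN conditioned medium. In MT_10% F11 was 1.81 times the highest. The ratios under conditioned medium thus cannot show how much of F11 came from carried-over cells. The part of carried-over cells in the F11 values was not tested in any group. In SEN the 5 transcripts summed to 25.4% of PRO while F11 was at 489%.

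**Figure D3:**
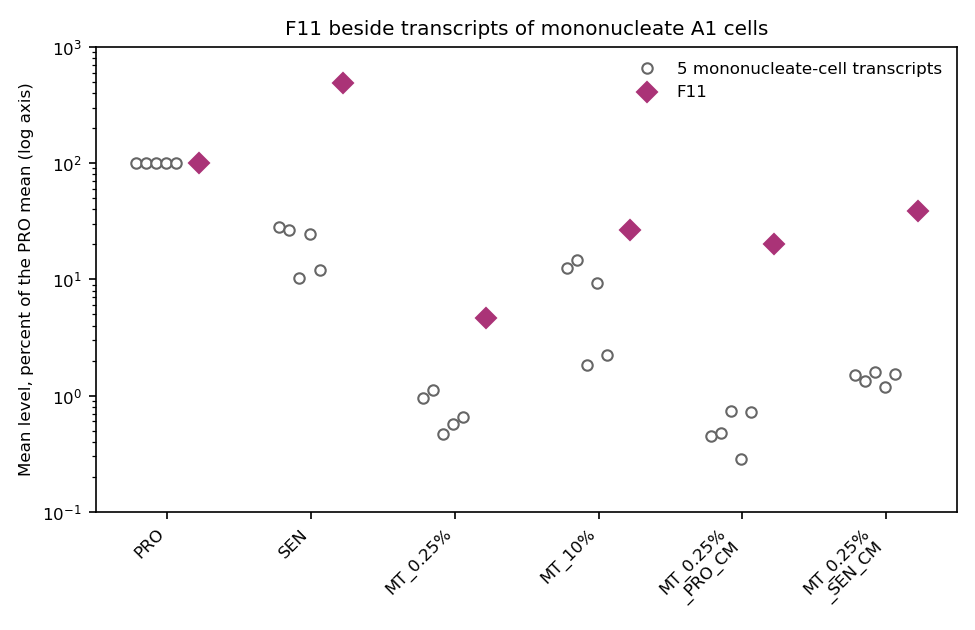
Mean level of F11 (diamonds) and of 5 transcripts of mononucleate A1 cells (open circles) in each group, as percent of the PRO mean on a log axis. F11 lies above all 5 transcripts in SEN and in each myotube group, with the narrowest gap, 1.81 times, in MT_10%. In MT_0.25% this follows from the choice of the 5 for low levels there. The choice may also lower the 5 under conditioned medium, where serum was low as well.

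The length deposited for F10 moved with cell state. Sailfish gives each entry a length in each library, and where it varies it may be averaged over the transcripts grouped under a name. It was 310 to 323 bases in PRO, 395 to 426 bases in SEN and 270 to 281 bases in the 12 myotube libraries. These 3 ranges did not overlap, and the 4 myotube groups did not separate from MT_0.25%. Of the 18685 tested entries whose length varied, 32.7% had lengths that did not overlap between SEN and PRO, and 19.0% had a mean ratio as far from 1 as the 1.29 of F10. Between MT_0.25% and PRO 53.2% did not overlap, and 46.4% had a mean ratio as far from 1 as the 0.869 of F10. The deposited length of F10 was below the end of its reading frame at base 1939 in every library. The same was true of F11 (382 to 410 bases, against a frame ending at base 1221) and of 43.9% of named entries with a frame. F8 had 10521 bases in all libraries. F10 in SEN had 25.1 ± 3.38 TPM (SD, n = 3) against 26.5 ± 1.40 in PRO, with overlapping libraries, although its CPM did not overlap. A longer length lowers TPM for the same reads. Relative to the median of all entries, F10 was lower in SEN on both scales (−1.16 with TMM and −1.27 with log2(TPM + 0.1)). CPM also divides by the TMM factors, 0.617 to 0.710 in PRO and 1.21 to 1.37 in SEN, and TPM does not. What else adds to the difference between CPM and TPM was not tested.

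**Figure D4:**
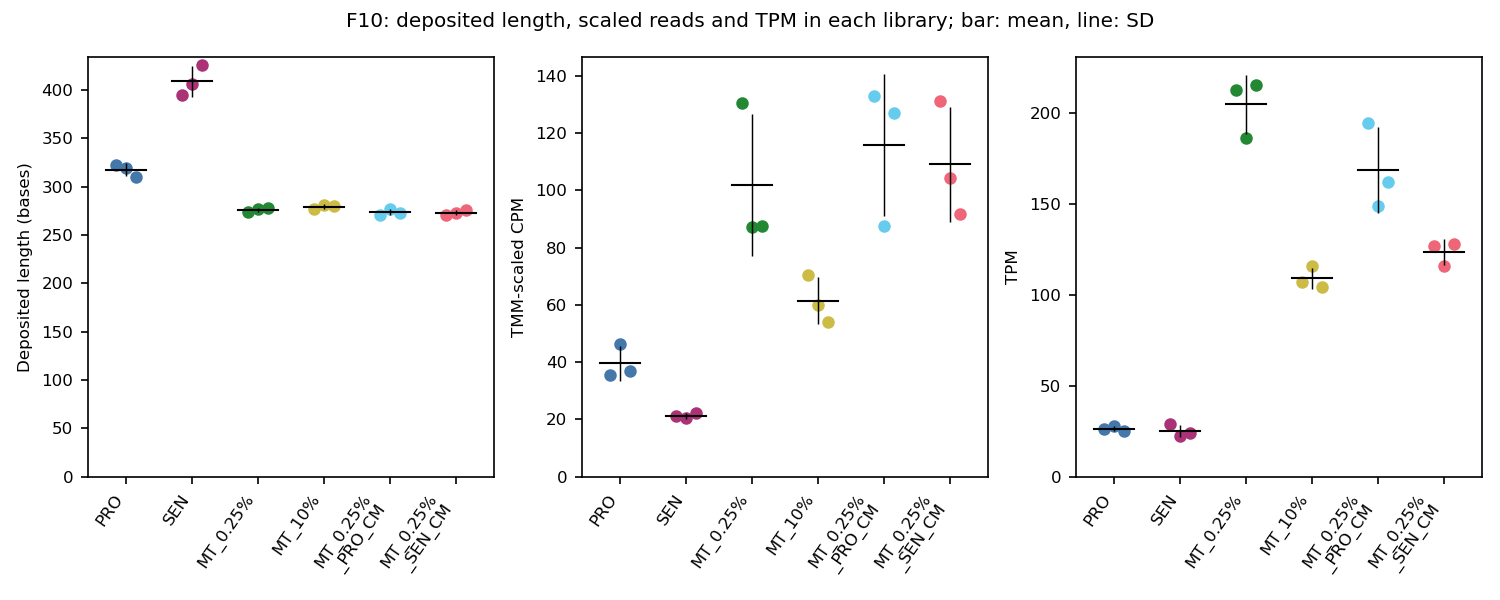
Deposited length in bases, TMM-scaled CPM and TPM of F10 in each library (vertical axes from 0), with mean (bar) and SD (line). SEN has the longest lengths, 395 to 426 bases, and the lowest CPM. Its TPM overlaps that of PRO, although a longer length lowers TPM for the same reads.

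Levels of the 3 members can be set beside each other only per length, in TPM, and with these lengths in mind. F10 led in PRO and in all myotube groups. It had 26.5 TPM in PRO against 9.95 for F11, a ratio of 2.66, and 205 TPM in MT_0.25% against 1.18 for F11, a ratio of 173. SEN was the exception, since F11 there had 113 ± 37.9 TPM (SD, n = 3), 4.49 times the level of F10. F8 was the lowest member in every group, between 0.0291 TPM in PRO and 0.246 TPM in MT_0.25%. Over the 18 libraries, log2(CPM + 1) of F10 and F11 had a Pearson correlation of −0.88, of F8 and F10 0.06, and of F8 and F11 −0.12. These points share 6 groups, so the values describe the group pattern only.

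Other transcripts of clotting and clot lysis gave a background for the members. The 10 entries were tissue factor, which starts the extrinsic arm, the thrombin receptor relative F2RL3, tissue-type plasminogen activator, alpha-1-antiproteinase, thrombospondin-1, a transglutaminase, an inter-alpha inhibitor heavy chain relative, a serine protease, and the domain relatives of F8, Mfge8 and ceruloplasmin. All 10 passed the filter. In SEN against PRO 9 were higher and none lower at an adjusted p of 0.05, beside 50.9% of all entries called, with a median log2 difference of 2.18 beside 0.27 over all entries. In MT_0.25% against PRO 4 rose and 3 fell, beside 69.7% of all entries called, with a median of 0.69 beside 0.20 over all entries. These names came from the study's tables of transcripts that differed in SEN or in MT_0.25% against PRO in these samples. Neither count is thus independent evidence, nor are the adjusted p-values of these entries in those contrasts.

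Tissue factor had 2.90 to 3.82 CPM in PRO and 13.3 to 24.9 CPM in SEN. It fell by 1.27 in MT_0.25% against PRO (adjusted p = 0.00100) and rose by 1.05 on the log2 scale in 10% FCS (adjusted p = 0.00932). Unlike F11 it was lower, not higher, in both conditioned media than in fresh low-serum medium, with log2 values of −1.11 (adjusted p = 0.0206) and −0.90 (adjusted p = 0.0383) for PRO and SEN medium. F2RL3, a receptor of the family that thrombin activates by cutting, had 40.7 to 57.6 CPM in PRO and 34.1 to 41.8 CPM in SEN. It fell by 2.14 in MT_0.25% against PRO (adjusted p = 6.18e-09) and was 1.43-fold higher in 10% FCS than in MT_0.25% (adjusted p = 0.0328).

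Serum raised 4 of the 10 (tissue factor, F2RL3, tissue-type plasminogen activator and thrombospondin-1) and lowered none, beside 40.0% of all entries called. Of those calls over all entries, 50.1% were higher. The list's median log2 change was 0.78 beside 0.03 over all entries. In each conditioned medium 4 of the 10 fell and none rose, beside 24.5% of all entries called in PRO medium and 37.7% in SEN medium, with medians of −0.86 and −0.79 for PRO and SEN medium beside −0.04 and −0.13. These were tissue factor, tissue-type plasminogen activator, thrombospondin-1 and Mfge8 in both. Over all entries 48.8% of calls were higher in PRO medium and 49.2% in SEN medium. The counts called in serum and in SEN medium were close to the shares over all entries. The list was chosen partly on levels in MT_0.25%, which these comparisons share. Its counts, medians and adjusted p-values here are thus not independent evidence. Tissue-type plasminogen activator, which starts clot lysis, rose 1.66-fold in 10% FCS (adjusted p = 0.0160) and fell by 0.80 and 0.90 on the log2 scale in PRO and SEN medium (adjusted p = 0.0159 and 0.00559). Between the media none of the 10 was called by edgeR, with F2RL3 closest (log2 0.60, adjusted p = 0.0509).

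Alpha-1-antiproteinase, an inhibitor of serine proteases, was nearly confined to SEN, with 109 to 164 reads a library there against 0 to 7 in PRO. Over the 3 libraries of a group it had 1 read in fresh low serum, 2 in 10% FCS, 0 with PRO conditioned medium and 8 with SEN conditioned medium, so no change within myotubes could be read at this depth. Ceruloplasmin, a copper-carrying ferroxidase that shares domains with F8, was 2.87-fold higher in SEN than in PRO (log2 1.52, beside 1.49 for F8). It rose 38.7-fold in MT_0.25% against PRO (log2 5.27, adjusted p = 1.00e-09), from 17 reads over the PRO libraries to 1470. In 10% FCS and in SEN conditioned medium, where F8 fell, its log2 values were −0.41 (adjusted p = 0.276) and −0.49 (adjusted p = 0.185). The difference between the 2 transcripts was not tested.

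The entries with the pattern most like each member were found by Pearson correlation of log2(CPM + 1) over the 18 libraries among the other 23106 tested entries. For F11 the closest was an entry with a CP49 protein as its nearest relative, a lens intermediate filament protein (r = 0.97), followed by the unnamed comp86183_c0_seq1 (0.97) and comp24506_c0_seq1 (0.95). Of the 109 heat map transcripts tested, the closest to F11 were the cytokine Il18 (0.94) and the matrix metalloproteinases Mmp3/10a (0.94) and Mmp9th (0.91). As percent of the PRO mean, F11 had 489% in SEN, 4.62% in MT_0.25%, 20.1% in PRO medium and 39.0% in SEN medium. In the same order Il18 had 190%, 24.8%, 25.1% and 41.2%. Mmp3/10a had 702%, 2.59%, 3.34% and 6.86%, and Mmp9th had 333%, 8.36%, 8.74% and 10.4%. In PRO medium these heat map transcripts thus stayed closer to their MT_0.25% levels than F11 did. The closest entries overall rose there, as F11 did. From MT_0.25% to PRO medium, the CP49 entry went from 24.6% to 41.0% of its PRO mean. In the same way comp86183_c0_seq1 went from 25.6% to 41.6% and comp24506_c0_seq1 from 23.4% to 52.9%. A rise in PRO medium was therefore not particular to F11.

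For F10 the closest entries were comp29441_c0_seq4 (0.99), comp19117_c0_seq1 (0.99) and comp56101_c0_seq2 (0.98), all without a name. This ranking depends on the measure. By Spearman correlation they ranked 25, 28 and 6, and by Pearson correlation of log2(TPM + 1) 81, 1133 and 67. Among the heat map transcripts the closest were Fgf13 (0.94), the muscle transcription factor Myog (0.91, Spearman 0.76) and a myosin heavy chain, MyHC (0.90). Mmp9th had the most opposite pattern (−0.97). For F8 the closest entries were comp1201109_c0_seq2 (0.95), comp1897359_c0_seq1 (0.93) and comp1056837_c0_seq1 (0.92), which had at most 50 reads in a library. The closest heat map transcripts to F8 were the ligands Wnt8b (0.79), Bmp5 (0.78) and Bmp2 (0.77), and the most opposite was the kinetochore subunit Spc24 (−0.82). Wnt8b, like F8, was higher in MT_0.25% (1.80 CPM) and MT_0.25%_PRO_CM (1.12 CPM) than in MT_10% (0.495 CPM) and MT_0.25%_SEN_CM (0.568 CPM).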

How the data were processed

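Reads were trimmed by the authors with Trim Galore and assigned to an assembled newt transcriptome with Sailfish, library by library (versions not given in the sources used here). Deposited estimated counts are raw Sailfish read assignments. Deposited TPM come from the same Sailfish output, scaled for length and depth within a library. Deposited lengths were used as described. No genome was used, so no positions are given.

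Rounded counts of all 18 libraries entered 1 edgeR 4.0.16 fit (R 4.3.3, limma 3.58.1) after filterByExpr, which left 23107 entries, with TMM factors and a mean for each of the 6 groups. Contrasts were tested by quasi-likelihood, adjusted over all entries at 0.05. CPM are TMM-scaled. Alternatives were RLE scaling, no filter, DESeq2 1.42.0, limma on log2(TPM + 1) or log2(TPM + 0.1), the compared groups alone, a replicate block and omission of each library. The fit was tested on simulated counts. Names were tied to entries where counts divided by size factors gave the named row's values within a relative tolerance of 0.002, since the identifiers printed beside the names in the table of all calls differed from the matched entries. Columns of the study's own comparisons were not used. The genes named were the members, the clotting list, the markers and the 3 entries most like each member, overall and among the heat map transcripts.

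Replicate numbers come from the labels. Same-numbered libraries deviated together in every pair for PRO with SEN (lowest r = 0.37) and MT_0.25% with MT_0.25%_SEN_CM (lowest r = 0.13), so the numbers were taken to pair these groups. In the latter, MT_0.25% replicate 2 had a higher r (0.24) with a library of another number. MT_10% with MT_0.25%_SEN_CM was also positive in every pair, but its lowest r of 0.089 was under the limit set. It and all other groups were not taken as paired. The main fit had no replicate term, so its p-values for SEN medium against MT_0.25% ignore the pairing. No fit paired those groups alone. The members, lists and markers were chosen with earlier results of these data known.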

Additional observations from a re-analysis of the deposited data

How the results depend on the processing

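Depth limits F8, with 7 to 164 reads a library, and the low-serum values of F11, with 29 to 75. F8 did not exceed 0.389 TPM in any library, so the constants added to TPM shrink its log2 changes. Of 168 values from other settings than omissions, 147 kept their direction and their side of the threshold, or moved by less than the replicate SD. The cause of the other changes was not tested. On TPM, F10 turned negative in PRO medium (−0.28 with log2(TPM + 1), −0.29 with log2(TPM + 0.1)) and in SEN medium (−0.72 and −0.73) and was called between the media (−0.44 with both, adjusted p = 0.0411 and 0.0493). F11 in MT_10% against PRO was no longer called (−0.71 and −0.80, adjusted p = 0.119 and 0.125). SEN against PRO gave −0.082 and −0.085 for F10, 3.33 and 3.44 for F11, and 0.21 for F8 with log2(TPM + 1). F8 between the media lost its call with TPM (−0.15 and −0.79, adjusted p = 0.179 and 0.0843), RLE scaling (−1.23, adjusted p = 0.0534) and no filter (−1.21, adjusted p = 0.0522). DESeq2 called F11 between the media (0.95, adjusted p = 0.0494) and in the difference of effects (1.54, adjusted p = 0.0281). With a replicate block, F8 between the media lost its call (−1.23, adjusted p = 0.0542) and in PRO medium became 0.0085. No other call of a member changed. The block was shared by all groups, also those not taken as paired, so it cannot decide how the paired comparisons depend on pairing.

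With 1 library left out, log2 values ran for F8 from −0.33 to 0.28 in PRO medium, −1.55 to −0.94 in SEN medium, −1.50 to −0.94 between the media, −0.0040 to 0.91 in MT_10% against PRO and −0.50 to 0.12 in the difference of effects. F10 ran from −0.049 to 0.34 in SEN medium, −0.25 to 0.030 between the media, −0.83 to −0.51 in MT_10% against MT_0.25% and 0.53 to 0.77 in MT_10% against PRO. F11 ran from 0.54 to 1.47 between the media and from 1.05 to 1.98 in the difference of effects. Over all entries, SEN medium gave 8720 calls and, on TPM, 14697 and 14436. The difference of effects gave 974, with 1759 by DESeq2, 330 with log2(TPM + 0.1) and 1502 from the groups compared alone. Higher calls were 36.0% to 57.4% of calls with TMM and 4.41% to 95.1% with TPM. Summing counts over an assembly component was not run, because each held 1 entry.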
